A study of Mus musculus with 8 samples.

Results

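The 10 genes described here belong to the zinc biology of the cell, and they were examined in endogenous CD8+ T cells that had been split by their surface level of the interleukin-18 receptor α-chain (IL-18Rα). They are 4 carbonic anhydrases (*Car1*, *Car2*, *Car5b* and *Car13*), 2 metallothioneins (*Mt1* and *Mt2*), the metal-responsive transcription factor *Mtf1*, the zinc exporter *Slc30a1* and the importers *Slc39a8* and *Slc39a10*. All were taken by gene symbol from the 47493 genes in the table. *Car1* and *Mt2* were picked for their strong fall between the fractions compared here, so their values are a description and carry no test. The other 8 were chosen by function.

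Carbonic anhydrases are zinc enzymes that convert carbon dioxide and water to bicarbonate and a proton, and the cytosolic forms are among the most abundant proteins of red blood cells. Metallothioneins are small, cysteine-rich proteins that bind zinc, copper and cadmium and buffer the free zinc of the cytosol. MTF1 senses free zinc and switches on metallothionein genes and the exporter ZnT1, encoded by *Slc30a1*, through metal response elements in their promoters. Transporters of the SLC30 family lower cytosolic zinc and those of the SLC39 (ZIP) family raise it, and zinc entry accompanies the activation of T cells.

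RNA was sequenced from 8 libraries of 4 mice. Female C57BL/6 mice, 6 to 8 weeks old at the start, carried B16F10 melanoma (200000 cells). All of them received 300 mg/kg cyclophosphamide on day 3, and on day 5 they were given 2000000 Pmel-1 CD8+ T cells with a transgenic receptor for a melanoma antigen, followed by recombinant human IL-2 for 3 days. Anti-CD4 antibody (200 μg weekly) began on day 10, and lymph nodes and spleens were taken on day 25. After red-cell lysis, Thy1.1-negative CD8+ T cells were isolated from each mouse with a CD8 kit that works by negative selection, which depletes other lineages, and with Thy1.1 beads. Cells that an IL-18Rα antibody held on a magnetic column formed the IL-18Rαhi-enriched fraction, and those that passed through it formed the flow-through. Each mouse thus gave a library to both groups (n = 4 each), no untreated mouse entered the comparison, and the enriched cells alone had been held by the antibody and the column. The values are FPKM, which count sequenced fragments relative to transcript length and library size, and a fold change is a difference of log2(FPKM + 1) between enriched and flow-through.

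*Il18r1*, the gene of the receptor used for the separation, averaged 30.6 FPKM in the flow-through against 110.8 FPKM in the fraction labelled as enriched. The libraries held an estimated 14600000 to 17900000 fragments. The summed level of 8 CD8 T-cell identity markers was 1458 to 2736 FPKM in the flow-through against 2708 to 2933 FPKM in the enriched fraction, with flow-through 1 the lowest. Markers of erythroid progenitors were present in every library: their sum was 508 to 1878 FPKM in the flow-through against 158 to 655 FPKM in the enriched fraction, none of the 16 was at 0, and flow-through 1 was the highest. Since flow-through 1 stood apart, results of the members and family genes that change without mouse 1 are also given without it. For the marker genes and the other gene lists no values without mouse 1 are given, so their dependence on it was not checked.

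The promoters of the zinc-responsive members are shown first, since the core of the metal response element can be read in them directly. RefSeq promoter windows (GRCm38.p6, the mm10 build) were matched for 7 of the 10 members, and each window runs from 250 bases before to 30 bases after the RefSeq start. They were searched on both strands for 2 cores, TGCGCNC and TGCACNC, which differ at the fourth base and so cannot count the same site again. Below, *Mt1* (chr8:94178839-94179118, plus strand), *Mt2* (chr8:94172368-94172647, plus strand) and *Slc30a1* (chr1:191906531-191906810, plus strand) are printed 5′ to 3′, with each core in capitals.
Mt1: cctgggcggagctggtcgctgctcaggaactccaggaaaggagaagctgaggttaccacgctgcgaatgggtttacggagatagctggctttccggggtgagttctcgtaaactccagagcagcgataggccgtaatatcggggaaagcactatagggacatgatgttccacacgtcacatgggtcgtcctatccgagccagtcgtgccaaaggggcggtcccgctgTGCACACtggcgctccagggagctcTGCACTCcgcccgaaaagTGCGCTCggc
Mt2: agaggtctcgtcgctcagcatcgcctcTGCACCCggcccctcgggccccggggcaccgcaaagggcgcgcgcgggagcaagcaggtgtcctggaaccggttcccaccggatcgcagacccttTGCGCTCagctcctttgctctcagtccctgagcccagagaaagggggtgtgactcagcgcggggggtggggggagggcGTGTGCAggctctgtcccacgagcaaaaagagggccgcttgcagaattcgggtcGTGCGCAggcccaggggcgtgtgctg
Slc30a1: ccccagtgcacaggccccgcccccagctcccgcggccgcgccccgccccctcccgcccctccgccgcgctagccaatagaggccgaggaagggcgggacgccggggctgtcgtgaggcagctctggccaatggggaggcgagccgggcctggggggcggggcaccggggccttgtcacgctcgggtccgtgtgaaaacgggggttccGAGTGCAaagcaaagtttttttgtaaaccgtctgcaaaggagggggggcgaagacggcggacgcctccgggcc
The window of *Mt1* held 3 cores, all on the plus strand, and their leftmost bases lay at -23, 3 and 21, counted from 1 at the RefSeq start. That of *Mt2* held 4, on the plus strand from -223 and -128 and on the minus strand from -50 and 5. *Slc30a1* held 1, on the minus strand from -43, and a core on the minus strand reads as its reverse complement in the printed line. The window of *Mt2* ends before the GENCODE start of the gene, which lies downstream of the RefSeq start. Of 32851 mouse promoters of the same length, 24.1% held at least 1 core, 1.73% at least 3 and 0.405% at least 4. *Slc39a8* has 2 promoters in the table, of which 1 held 1 core, and the windows of *Car5b*, *Mtf1* and *Slc39a10* held none. *Car1*, *Car2* and *Car13* were not matched. A core is a match of letters and not evidence that MTF1 was bound in these cells.

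Among the members that are carbonic anhydrases, the cytosolic *Car1*, *Car2* and *Car13* lie in a cluster on chromosome 3. These genes had lower mean levels in the IL-18Rαhi-enriched fraction, whereas the mitochondrial *Car5b* was higher. By limma on the 12166 genes whose mean reached 1 FPKM, *Car13* fell and *Car5b* rose at an adjusted p below 0.05, and *Car2* did not pass. Across those genes, 13.7% (1664) were called lower and 14.1% (1720) higher, or 881 lower and 552 higher when libraries were scaled to equal levels of the T-cell markers. Of the 8 members chosen by function 2 were called lower and 1 higher. With the mouse as a block, which fits the pairing of the fractions, 4 were called lower and 1 higher. That fit called 22.7% of all genes lower and 22.2% higher. Counts this small are not set apart from either background. These are bulk libraries, in which fewer cells of a type and less RNA per cell cannot be told apart.

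*Car1* encodes the cytosolic carbonic anhydrase I, abundant in red cells (chromosome 3, 14766216 to 14808368, minus strand, mm10). Its level was 1359, 609, 789 and 769 FPKM in flow-through 1 to 4. In the enriched fraction of the same mice it was 248, 84.2, 191 and 87.2 FPKM. All enriched values lay below all flow-through values, and within a mouse the enriched fraction was 4.13- to 8.82-fold lower. The means were 882 ± 328 (SD, n = 4) and 153 ± 80.8 FPKM, a 5.77-fold difference in the direction for which the gene was picked, and the log2 fold change was -2.61 (SE 0.39). *Car1* ranked at position 116 of 47493 genes by mean level in the flow-through and at 652 in the enriched fraction.

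*Car2*, the fast cytosolic carbonic anhydrase II of red cells, kidney and osteoclasts, lies 77.9 kb from *Car1* (14886273 to 14900770, plus strand). The flow-through libraries held 912, 218, 457 and 278 FPKM of it. The enriched libraries held 328, 68.3, 187 and 69.5 FPKM. The fractions overlapped, because enriched 1 lay above flow-through 2 and 4, although every mouse had the lower value in its enriched fraction, at 0.25 to 0.409 of the flow-through. The group means were 466 ± 314 and 163 ± 123 FPKM, and the log2 fold change of -1.60 (SE 0.60, 95% confidence interval -2.98 to -0.23) did not pass (limma, adjusted p = 0.0793). With the mouse as a block the same difference had an adjusted p of 0.000271, in a fit that called 22.7% of all genes lower and 22.2% higher. Leaving out both libraries of mouse 1 gave -1.64 (adjusted p = 0.0319), and leaving out only enriched 1 gave -2.04 (adjusted p = 0.0347). The 7 fits that left out another library gave -1.89 to -1.20, with adjusted p from 0.0577 to 0.189.

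*Car13*, another cytosolic form, begins the same cluster 103.2 kb from *Car1* (14641727 to 14663002, plus strand) and was far less abundant. It measured 11.3, 3.06, 5.82 and 4.24 FPKM in the flow-through. Enriched libraries 1 to 4 measured 2.49, 0.936, 1.3 and 0.839 FPKM. The fractions did not overlap, which was true in the lower direction of 15.9% of all genes tested and in the higher direction of 16.4%. The fall was 1.49 on the log2 scale (SE 0.35, 95% confidence interval -2.28 to -0.70, limma adjusted p = 0.0153), or 4.39-fold between the means of 6.11 ± 3.65 and 1.39 ± 0.759 FPKM. *Car3*, a muscle form that lies between *Car1* and *Car2*, was low. It measured 0.619 to 3.12 FPKM in the flow-through against 0 to 1.02 FPKM in the enriched fraction. It reached the filter only through the flow-through, so its difference of -0.80 on the log2 scale (SE 0.35) is a description.

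*Car5b* (chromosome X, 163976822 to 164027997, minus strand) encodes a mitochondrial carbonic anhydrase that supplies bicarbonate to carboxylating enzymes. Flow-through levels were 1.7, 2.14, 2.06 and 1.52 FPKM. Enriched levels were 8.68, 5.43, 7.1 and 6.16 FPKM. It was higher in the enriched fraction of every mouse, by 2.54- to 5.1-fold, with no overlap. The rise was 1.45 on the log2 scale (SE 0.15, 95% confidence interval 1.12 to 1.78, limma adjusted p = 0.000709), between means of 1.86 ± 0.293 and 6.84 ± 1.4 FPKM. *Car1* and *Car2* still made up most of the family's summed FPKM, 98.2% to 99.0% in the flow-through and 92.0% to 97.0% in the enriched fraction.

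**Figure D1:**
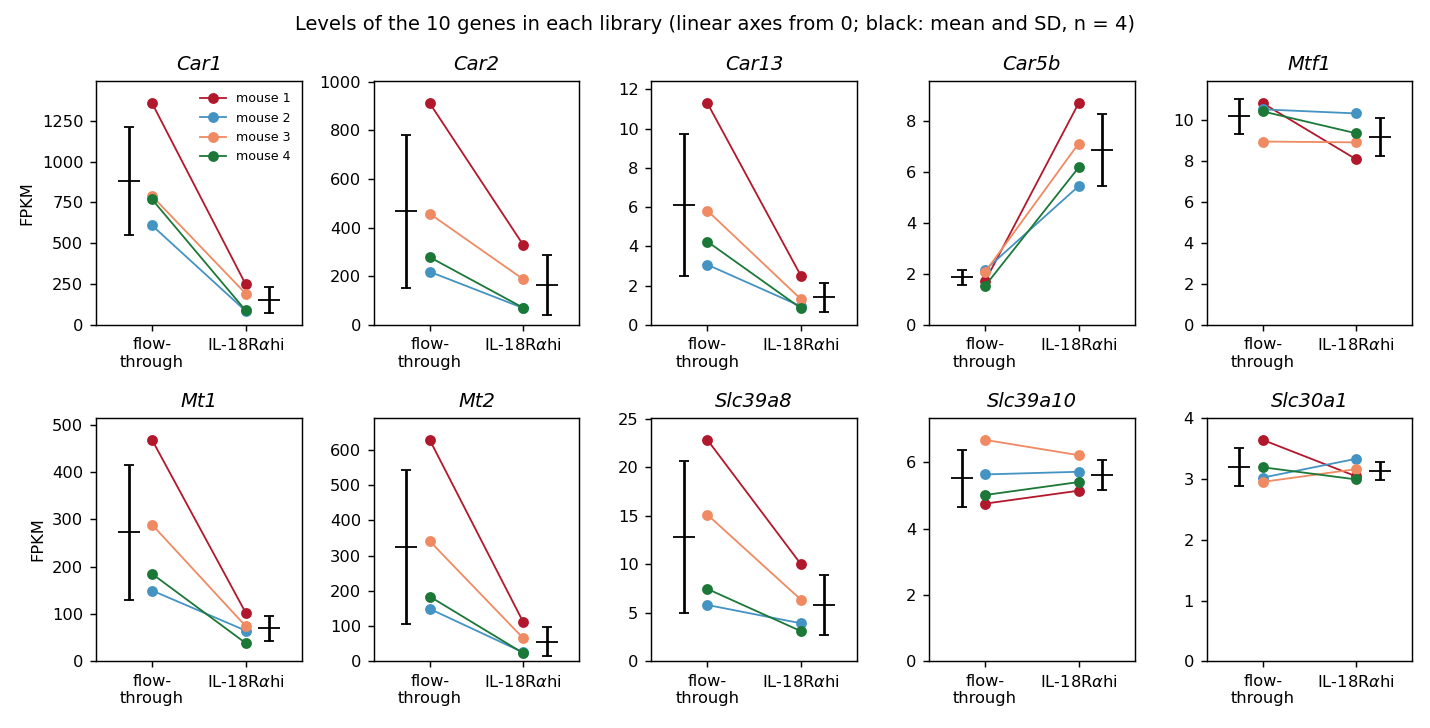
Level of the 10 genes in FPKM (vertical axis, linear from 0, scaled to each gene) in the flow-through and IL-18Rαhi-enriched libraries, with each mouse in a colour of its own joined by a line, and the mean and SD of each group in black. *Car1*, *Car13*, *Mt1* and *Mt2* do not overlap between the fractions and are lower in the enriched libraries, *Car5b* is higher without overlap, and the fractions of *Mtf1*, *Slc30a1* and *Slc39a10* overlap.

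Both metallothioneins had lower levels in the enriched fraction of every mouse. *Mt1* and *Mt2* lie 5.5 kb apart on chromosome 8, and each encodes a zinc-buffering protein of most tissues. *Mt2* (94172664 to 94173568, plus strand) measured 628, 149, 341 and 184 FPKM in flow-through 1 to 4. The enriched libraries measured 111, 25.3, 65.5 and 23.2 FPKM. No enriched value reached the lowest flow-through value, and the within-mouse difference was between 5.21- and 7.93-fold. The means of 326 ± 218 and 56.3 ± 41.5 FPKM differed 5.78-fold, with a log2 fold change of -2.58 (SE 0.60), again in the direction that picked the gene. An antisense gene, *Gm45774*, overlaps *Mt2* in GENCODE and has no value among the deposited genes. The authors name no strand setting. If their counting ignored strand, reads of *Gm45774* may have been counted for *Mt2*.

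*Mt1* (94179082 to 94180327, plus strand) was chosen by function and could be tested. Its flow-through levels were 468, 149.7, 289 and 185 FPKM. The enriched fraction held 103, 65.1, 74.6 and 38.7 FPKM. Again the fractions did not overlap, with each enriched library at 0.209 to 0.435 of its flow-through partner. *Mt1* fell by 1.88 on the log2 scale (SE 0.39, 95% confidence interval -2.78 to -0.98, limma adjusted p = 0.0102), between means of 273 ± 143 and 70.5 ± 26.7 FPKM. *Mt1* and *Mt2* are related genes of the same family, and whether the authors' counting shared some reads between them was not tested.

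*Mt1* over *Mt2* in FPKM was 0.747, 1.0, 0.846 and 1.01 in the flow-through and 0.93, 2.57, 1.14 and 1.67 in the enriched fraction. *Car2* over *Car1* was 0.671, 0.358, 0.579 and 0.361 in the flow-through and 1.32, 0.811, 0.98 and 0.797 in the enriched fraction. *Car1* and *Mt2* were picked for a strong fall, so that choice leans both ratios upward in the enriched fraction, and they are only a description.

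**Figure D2:**
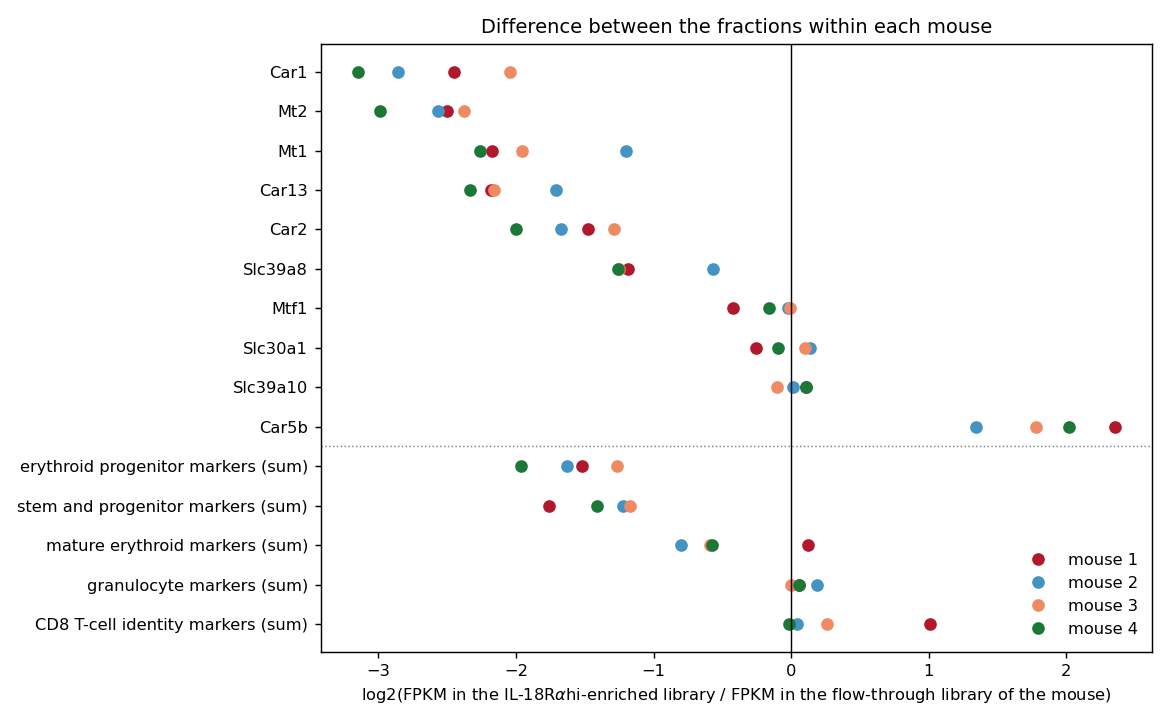
Enriched over flow-through FPKM of each of the 10 genes within a mouse (log2 axis, 1 point per mouse, n = 4). The points of *Car1*, *Car2*, *Car13*, *Mt1*, *Mt2* and *Slc39a8* lie below equality in 4 of 4 mice while *Car5b* lies above it in 4 of 4. *Mtf1* is also below it in 4 of 4, at 0.746 to 0.995 of the flow-through, and the lower rows give the summed markers of other cell types.

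No difference passed the test for *Mtf1*, the zinc sensor that drives metallothionein transcription (chromosome 4, 124802104 to 124849800, plus strand). It measured 10.8, 10.5, 8.93 and 10.4 FPKM in the flow-through against 8.06, 10.3, 8.89 and 9.33 FPKM in the enriched fraction. The fractions overlapped, and the log2 difference of -0.14 (SE 0.10, 95% confidence interval -0.36 to 0.08) did not pass (limma adjusted p = 0.303). A change of the size measured for *Mt1* lies outside that interval. *1110065P20Rik*, on the opposite strand, overlaps *Mtf1*, so part of its reads could not be told apart if counting ignored strand.

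*Slc30a1* encodes ZnT1, the exporter of the plasma membrane and a known MTF1 target (chromosome 1, 191906767 to 191913247, plus strand). It measured 3.64, 3.02, 2.95 and 3.19 FPKM in the flow-through against 3.04, 3.33, 3.16 and 2.99 FPKM in the enriched fraction. The groups overlapped throughout. Its log2 difference was -0.02 (SE 0.09, 95% confidence interval -0.24 to 0.19, limma adjusted p = 0.878). The interval of *Mt1*, from -2.78 to -0.98, did not overlap those of *Slc30a1* and *Mtf1*, and the difference between the genes was not tested.

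*Slc39a8*, the ZIP8 importer of zinc and manganese (chromosome 3, 135825279 to 135888572, plus strand), had 22.8, 5.81, 15.1 and 7.46 FPKM in the flow-through. The enriched libraries had 10.0, 3.92, 6.35 and 3.11 FPKM. Fractions overlapped, with the enriched value of each mouse at 0.417 to 0.674 of its flow-through value. The log2 difference was -0.94 (SE 0.44, 95% confidence interval -1.95 to 0.07) and did not pass (limma adjusted p = 0.145), whereas with the mouse as a block the adjusted p was 0.00195. *Slc39a10*, the ZIP10 importer of lymphoid and other cells (chromosome 1, 46807544 to 46892852, minus strand), measured 4.75, 5.63, 6.67 and 5.01 FPKM in the flow-through against 5.14, 5.71, 6.21 and 5.4 FPKM in the enriched fraction. Its log2 difference was 0.03 (SE 0.11, 95% confidence interval -0.23 to 0.28, limma adjusted p = 0.869), and -0.24 with the T-cell scaling, also without a call.

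Several members also varied widely between mice. *Car1*, *Car2*, *Car13*, *Mt1*, *Mt2* and *Slc39a8*, 6 of the 10, had mouse 1 highest and mouse 3 next in both fractions. Over all genes tested, mouse 1 was highest in both fractions for 18.5%, a looser pattern that does not ask for mouse 3 next. The highest mouse exceeded the lowest by 4.2-fold for *Mt2* in the flow-through and 4.8-fold in the enriched fraction, and by 4.18- and 4.8-fold for *Car2*. The values for *Car1* were smaller, at 2.23- and 2.95-fold. Medians over 12078 genes were 1.44- and 1.27-fold. The full order of the 4 mice was the same in both fractions for *Car1*, *Car2* and *Slc39a10*, against 16.2% of all genes.

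The genes whose pattern over the 8 libraries was most like that of *Car1* or *Mt2* were named by Pearson correlation of log2(FPKM + 1) among 9328 genes. For *Car1* they were *Mfsd2b* (r = 0.9964), a sphingosine-1-phosphate transporter of red cells and platelets, then *Dcaf4* (0.9947), *Prkar2b* (0.9926), *Ssbp2* (0.9902) and *Mmp14* (0.9901). For *Mt2* they were *Gata1* (r = 0.9968) and *Tal1* (0.9964), transcription factors of the erythroid line, *Tfr2* (0.9962), the transferrin receptor 2, *Sh3tc2* (0.9956) and *Gstm5* (0.9952). *Mt2* and its neighbour *Mt1* had r = 0.9768, at position 76 in that order, whereas *Car1* and *Car2* had r = 0.9043, at position 661. *Car1* and *Mt2* themselves had r = 0.9737, and *Mt2* and *Mtf1* 0.2124. These values are over 8 libraries that share mice, fractions and cell makeup, and many genes reach high values there.

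**Figure D3:**
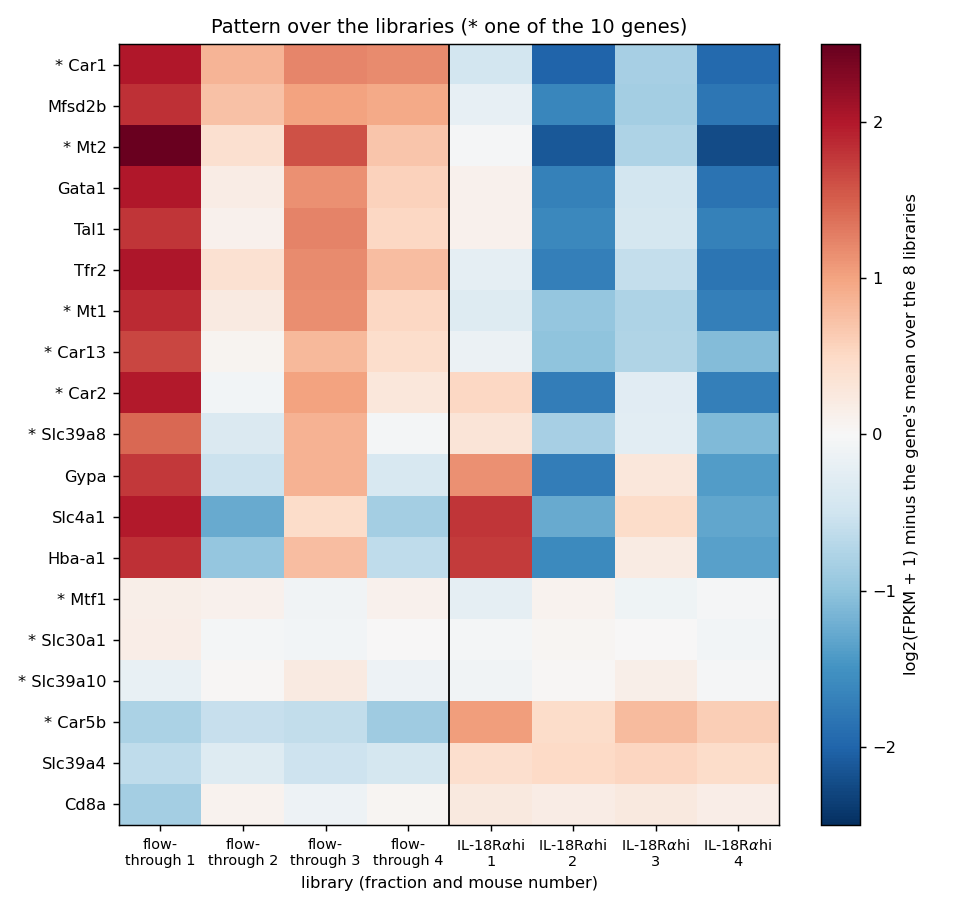
Level of 19 genes in each of the 8 libraries, as log2(FPKM + 1) minus the gene's mean over the libraries (colour scale), with flow-through 1 to 4 left of the line and IL-18Rαhi-enriched 1 to 4 right of it. The rows of *Car1*, *Mt2*, *Mt1*, *Car13* and *Car2* are highest in flow-through 1, next to *Mfsd2b*, *Gata1*, *Tal1* and *Tfr2*, whereas *Slc4a1* and *Hba-a1* are high in both libraries of mouse 1 and *Cd8a* is lowest in flow-through 1.

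Erythroid progenitor markers moved with the falling members. Of the 16 markers, 8 were called lower and 0 higher by limma, against 13.7% and 14.1% of all genes, with a median log2 fold change of -1.68 where the median of all genes was -0.0178. With the mouse as a block 15 were called lower. *Tfr2* fell by 2.17 (adjusted p = 0.00979), *Gata1* by 1.95 (adjusted p = 0.0251) and *Mfsd2b* by 2.26 (adjusted p = 0.00435). The sum was 0.349, 0.324, 0.415 and 0.256 of the flow-through in the enriched fraction of mice 1 to 4. For 15 of the 16 markers, mouse 1 was highest and mouse 3 next in both fractions, as for the 6 members above. Over all genes the looser pattern, mouse 1 highest in both fractions, held for 18.5%. *Slc4a1*, the anion exchanger of the red-cell membrane and also 1 of the 16, was not called: it measured 63.6, 5.89, 21.7 and 8.08 FPKM in the flow-through against 55.8, 5.87, 21.5 and 5.64 FPKM in the enriched fraction (log2 fold change -0.16, adjusted p = 0.905).

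The 5 mature erythroid markers were 4 globin genes and *Alas2*, the first enzyme of haem synthesis in red cells. By limma 0 of them were called (0 at an unadjusted p under 0.05). With the mouse as a block 2 were called lower and 0 higher, beside 22.7% and 22.2% of all genes. *Hba-a1* was at 0.607 to 0.943 of the flow-through within a mouse and differed by -0.50 (limma adjusted p = 0.686, or 0.011 with the block). *Hbb-bs* differed by -0.46 (adjusted p = 0.695, or 0.0354 with the block). *Hba-a2*, *Hbb-bt* and *Alas2* were not called in either fit. Of 5 stem and progenitor markers 4 were called lower and 0 higher, beside 13.7% and 14.1% of all genes. Their sum was 138 to 166 FPKM in the flow-through against 43.6 to 71.3 FPKM in the enriched fraction. The part of erythroid or other progenitor cells in the levels of *Car1*, *Car2*, *Car13*, *Mt1*, *Mt2* and *Slc39a8* was not tested.

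Markers of other cell types are given beside the higher level of *Car5b*. Of 4 macrophage and monocyte markers 3 were called higher in the enriched fraction (1 of them, *Adgre1*, passed the filter only through that fraction), and their sum was 113 to 384 FPKM in the flow-through against 370.4 to 869.7 FPKM in the enriched fraction. Of 4 mast cell and basophil markers 2 were called higher, with sums of 78.7 to 249 FPKM and 248 to 579 FPKM. Over all genes 14.1% were called higher and 13.7% lower, or 22.2% and 22.7% with the mouse as a block. Across the enriched libraries, *Car5b* was highest in mouse 1 and lowest in mouse 2, and both of these sums were lowest in mouse 1 and highest in mouse 2. The ratio of enriched to flow-through within a mouse was highest in mouse 1 and lowest in mouse 2 for *Car5b* (5.1 and 2.54). The same held for the macrophage and monocyte sum (3.29 and 2.26) and the mast cell and basophil sum (3.16 and 2.32). By limma 0 of 9 granulocyte markers, 0 of 3 megakaryocyte markers and 0 of 4 B-cell markers were called, and 0 had an unadjusted p under 0.05. The 9 granulocyte markers nonetheless summed to 596 to 3417 FPKM in the flow-through and 619 to 3883 FPKM in the enriched fraction. In mouse 2 these sums, 3417 and 3883 FPKM, lay above those of the 8 CD8 T-cell markers, 2661 and 2746 FPKM. With the mouse as a block 2 granulocyte markers were called higher and 1 lower, 1 megakaryocyte marker lower and 1 B-cell marker higher. Of the 8 CD8 T-cell markers limma called 0, with 2 higher at an unadjusted p under 0.05, and 5 lay higher in the enriched fraction without overlap. The part of these cells in the higher level of *Car5b* and of the family genes below was not tested.

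The whole families were then counted, so that the members could be read beside genes that were not picked. Of 45 genes in the 4 families together with *Mtf1*, 44 were in the table and 29 reached a mean of 1 FPKM. *Car4*, *Car6*, *Car10*, *Mt4* and *Slc30a8* were listed at 0 in every library. Without *Car1* and *Mt2*, 27 genes were tested, of which 2 (7.41%) were called lower, 5 (18.5%) higher and 20 neither, beside 13.7% and 14.1% of all genes. The genes called lower were *Car13* and *Mt1*, and those called higher were *Car5b*, *Mt3*, *Slc39a1*, *Slc39a4* and *Slc39a6*. With the mouse as a block 6 were called lower, namely *Car2*, *Car3*, *Car9*, *Car13*, *Mt1* and *Slc39a8*, and 5 higher. *Mt3* and *Car3* passed the filter only through the fraction in which they were higher. Among the 25 genes that reached 1 FPKM in both fractions, 2 (8.0%) were called lower and 4 (16.0%) higher, or with the block 5 (20%) and 4 (16.0%), where the block called 22.7% and 22.2% of all genes. These shares are near the background.

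**Figure D4:**
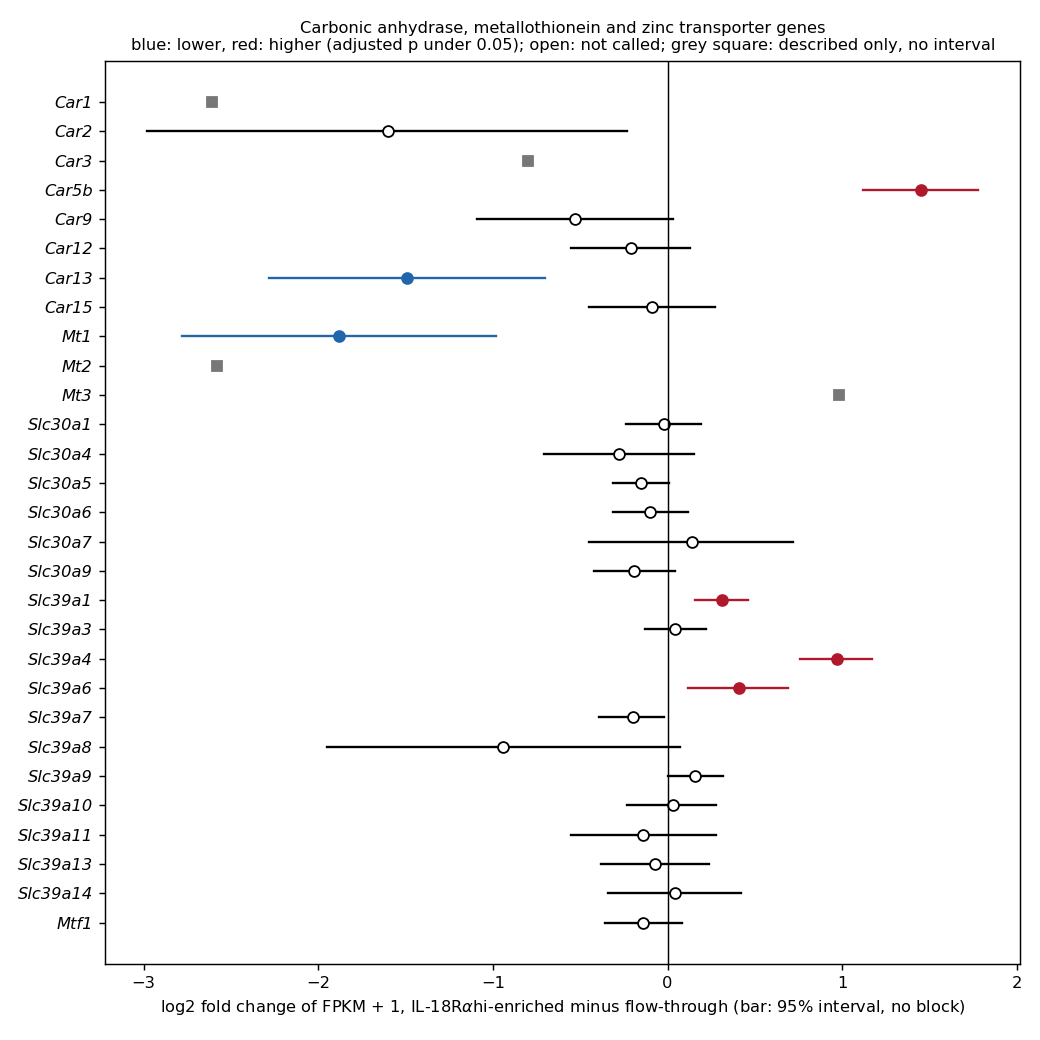
Difference of log2(FPKM + 1) between enriched and flow-through libraries (horizontal axis) for 29 family genes. Circles are tested genes with their 95% confidence interval, filled where called, and grey squares are *Car1*, *Mt2*, *Car3* and *Mt3*, described without an interval. *Car13* and *Mt1* lie to the left at -1.49 and -1.88, *Car5b*, *Mt3* and *Slc39a4* to the right at 1.45, 0.98 and 0.97, and the SLC30 genes between -0.28 and 0.14.

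Of the 11 SLC39 importers tested, 3 were called higher and 0 lower, with 1 lower at an unadjusted p under 0.05. With the mouse as a block 3 were called higher and 1 lower. Over all genes 14.1% were called higher and 13.7% lower, or 22.2% and 22.7% with the block. Counts this small are not set apart from those shares, and the median log2 fold change of the importers was 0.04. *Slc39a4*, which encodes the ZIP4 importer known from intestinal zinc uptake, measured 4.21, 5.52, 4.64 and 4.98 FPKM in the flow-through against 9.92, 10.5, 10.8 and 10.2 FPKM in the enriched fraction. It rose by 0.97 on the log2 scale (SE 0.09, limma adjusted p = 0.000544) with no overlap, a 2.14-fold difference of means. *Slc39a1*, the ZIP1 importer of the plasma membrane, went from 21.1 ± 0.766 to 26.4 ± 1.29 FPKM (log2 fold change 0.31, SE 0.07, adjusted p = 0.0119). *Slc39a6*, the ZIP6 importer, went from 13.2 ± 2.51 to 17.7 ± 0.913 FPKM (0.41, SE 0.12, adjusted p = 0.0414), and *Elp2* overlaps it on the opposite strand. Its call was lost without mouse 1 (0.39, adjusted p = 0.0837). With the T-cell scaling, *Slc39a1* had a log2 difference of 0.0033 and *Slc39a6* of 0.11, both without a call, and the median of all genes moved to -0.304.

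Among the other importers no gene passed the test. *Slc39a7*, which releases zinc from the endoplasmic reticulum, was the most abundant, at 59.7 ± 3.16 and 51.8 ± 4.2 FPKM (-0.20, adjusted p = 0.0898). *Slc39a9* differed by 0.16 (adjusted p = 0.121), *Slc39a3* by 0.04 (adjusted p = 0.696), *Slc39a11* by -0.14 (adjusted p = 0.599), *Slc39a13* by -0.07 (adjusted p = 0.728) and *Slc39a14* by 0.04 (adjusted p = 0.881). With the T-cell scaling *Slc39a3*, *Slc39a9* and *Slc39a14* differed by -0.24, -0.14 and -0.23, also without a call.

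Among exporters of the SLC30 family, limma called 0 of 6 in either direction, also with the mouse as a block and at an unadjusted p under 0.05, with a median log2 fold change of -0.12. *Slc30a5*, which loads zinc into the secretory pathway, measured 28.6 ± 1.84 and 25.7 ± 0.608 FPKM (-0.15, adjusted p = 0.139). *Slc30a9* differed by -0.19 (adjusted p = 0.187), *Slc30a6* by -0.10 (adjusted p = 0.483), *Slc30a7* by 0.14 (adjusted p = 0.721) and *Slc30a4* by -0.28 (adjusted p = 0.298). Without flow-through 1 *Slc30a4* differed by -0.45 (adjusted p = 0.038), but without both libraries of mouse 1 by -0.396 (adjusted p = 0.0653). Leaving out any other single library gave adjusted p from 0.335 to 0.519.

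*Mt3*, a metallothionein best known from brain, measured 0.598, 0.763, 0.591 and 0.447 FPKM in the flow-through against 2.62, 2.75, 1.64 and 1.75 FPKM in the enriched fraction. The difference was 0.98 on the log2 scale (SE 0.16), and since it passed the filter on low values only through the enriched fraction, it is a description. *Car9*, a membrane form induced by low oxygen, measured 1.99 ± 0.74 and 1.08 ± 0.523 FPKM, a difference of -0.53 (SE 0.24, adjusted p = 0.138, or 0.0155 with the mouse as a block). An antisense gene, *Gm12454*, overlaps *Car9* and reached 2.56 FPKM, so part of its reads could not be told apart if counting ignored strand.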

How the data were processed

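Libraries were made with a stranded mRNA kit and read as 150 bp pairs. The authors mapped reads to mm10 with TopHat and deposited FPKM from Cufflinks 2.1.1 with multi-read and fragment-bias correction, other options at default. Depth was estimated from the smallest values of genes with 1 transcript. Of the gene IDs, 98.9% were in GENCODE M21. The members, lists and tests were chosen with earlier results of these data known. Genes whose mean reached 1 FPKM were tested on log2(FPKM + 1) with limma 3.58.1 (R 4.3.3), variance trend, without a block, two-sided, with Benjamini-Hochberg adjustment over all 12166. Fold changes on this scale understate those of low genes. The libraries were paired by number. The protocol in the labels has both fractions taken from each of 4 mice, and the libraries are numbered 1 to 4 in both. Deviations of same-numbered libraries from their group means correlated (r = 0.66, 0.589, 0.308 and 0.471 for mice 1 to 4). Among differently numbered libraries, flow-through 2 with enriched 4 reached 0.412 and flow-through 4 with enriched 2 reached 0.282. Each library still correlated most with the partner of its own number. A fit with the mouse as a block was therefore an alternative, beside a pseudocount of 0.1, other filters, quantile normalization, scaling to 8 T-cell genes and leaving out each library. Leaving out both libraries of mouse 1, and T-cell scaling with the block, were added after the data were seen. Text values are for the members, family genes called or reaching a mean of 5 FPKM in either fraction, the 5 genes most like *Car1* and *Mt2*, and marker genes beside a result. *Car3*, *Car9* and *Slc30a4* were named after their values were seen. The method was tested on simulated data.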

Additional observations from a re-analysis of the deposited data

How the results depend on the processing

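Of the members chosen by function, 2 were called lower and 1 higher, and of the families, without *Car1* and *Mt2*, 2 lower and 5 higher. With the mouse as a replicate block, which fits the pairing by animal, 4 members and 6 family genes were called lower. With only genes of at least 5 FPKM on average, 1 member was called lower and 0 higher, and 1 family gene lower and 3 higher, because *Car5b*, *Car13* and *Mt3* were then not tested. T-cell scaling left 3 family genes called higher, and with the replicate block it gave 4 members and 6 family genes called lower and 3 family genes higher. Leaving out each library gave 2 to 3 members called lower and 1 higher, 2 to 3 family genes lower and 4 to 5 higher, and a median log2 fold change of *Car1* and *Mt2* between -2.95 and -2.28. Without both libraries of mouse 1 the counts were 3 and 1 members and 3 and 4 family genes. *Slc39a6* lost its call in 7 of the 8 fits that left out a library (adjusted p from 0.0511 to 0.103) and kept it only without flow-through 4 (adjusted p = 0.0141). No called gene changed sign, but 22 values of uncalled genes did. With T-cell scaling, with or without the replicate block, *Slc39a10* came to -0.244, *Slc39a3* to -0.241, *Slc39a14* to -0.228, *Slc30a7* to -0.146 and *Slc39a9* to -0.139. Without mouse 1 *Slc30a1* came to 0.0366 and *Slc39a13* to 0.0485. Leaving out each library gave -0.0503 to 0.0262 for *Slc30a1*, -0.0285 to 0.11 for *Slc39a10*, -0.189 to 0.0327 for *Car15*, -0.0388 to 0.376 for *Slc30a7*, -0.278 to 0.000229 for *Slc39a11*, -0.197 to 0.0159 for *Slc39a13* and -0.0806 to 0.144 for *Slc39a14*. Over all genes, 1664 were called lower and 1720 higher, against 2763 and 2705 with the replicate block, 881 and 552 with T-cell scaling, 2109 and 665 with T-cell scaling and the block, 939 and 1170 without flow-through 3, 958 and 1115 without enriched 2, and 971 and 1107 without enriched 4. Quantile normalization moved the median of all genes to -0.0256 and T-cell scaling to -0.304. The FPKM carry no count error, so genes near 1 FPKM are the least certain here, and FPKM are relative levels, in which a gene's share depends on the rest of the library.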

Other observations

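Genes that respond to metal or oxidative stress went in both directions. Of 7 listed, 6 were tested, and limma called 1 lower and 1 higher, or 2 and 1 with the mouse as a block, where 13.7% and 14.1% of all genes were called, or 22.7% and 22.2% with the block. *Hmox1*, haem oxygenase 1, rose from 2.68 ± 0.933 to 8.72 ± 1.46 FPKM (log2 fold change 1.43, adjusted p = 0.00271), and *Nqo1*, a quinone reductase, fell from 12.7 ± 4.6 to 3.36 ± 1.91 FPKM (-1.70, adjusted p = 0.00841). *Gclm*, a subunit of the enzyme that begins glutathione synthesis, differed by -0.87 (adjusted p = 0.0517, or 0.00102 with the mouse as a block).

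Of 7 glucocorticoid-responsive genes, 1 was called lower and 2 higher, or 3 and 2 with the mouse as a block. The shares over all genes were 13.7% lower and 14.1% higher, or 22.7% and 22.2% with the block. *Klf9* fell by 0.77 on the log2 scale (limma adjusted p = 0.0118), whereas *Fkbp5* rose by 0.83 (adjusted p = 0.0018). *Zbtb16*, the other gene called higher, averaged 0.405 and 1.93 FPKM and passed the filter only through the enriched fraction. *Tsc22d3* differed by -0.55 (adjusted p = 0.126, or 0.0104 with the block) and *Per1* by -0.29 (adjusted p = 0.0924, or 0.0401). Of 9 bicarbonate transporters of the SLC4 family, 4 were tested and 2 were called higher, beside 14.1% of all genes. *Slc4a7*, a sodium bicarbonate cotransporter, went from 6.15 to 9.06 FPKM (0.49, adjusted p = 0.0078) and *Slc4a8* from 2.52 to 6.91 FPKM (1.20, adjusted p = 0.00589). *Slc4a1* belongs to this list and to the erythroid markers.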
